A study of Homo sapiens with 4 samples.

Results

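RAB genes encode the largest family of small GTPases in the RAS superfamily, and the family was taken here as every gene row whose symbol was RAB, a number and at most 1 letter. This rule found 64 members among the 54628 gene rows of each table. Of these, 53 had enough reads to be tested and 11 did not. Poly(A) RNA had been sequenced from Panc1, an established human pancreatic ductal carcinoma cell line, after transfection with small interfering RNA (siRNA). The labels place 2 libraries in a group given HMGB2 siRNA and 2 libraries in a control group given Scramble siRNA, and all 4 share the same cell line with no other agent named. HMGB2 encodes a chromatin protein with high mobility group boxes. All libraries come from a single cell line, the sources used here do not give the siRNA sequences, and no label says that replicates were separate cultures, so p-values reflect library-to-library spread only, possibly of technical origin. In such bulk RNA, fewer cells making a transcript and less of it per cell cannot be told apart.

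The libraries labelled HMGB2 siRNA held 31852391 and 20976561 gene counts, and those labelled Scramble held 21874647 and 20340695. Reads for HMGB2 (GRCh38 chromosome 4, 173331376 to 173334358) numbered 4021 and 2746 under the HMGB2 siRNA label, against 346 and 319 under the Scramble label. The targeted transcript was thus higher where the label names the siRNA against it, at 3.07 ± 0.08 on the log2 scale (SE), with an adjusted p of 1.54e-33 by the edgeR test described with the RAB genes. The count columns of all 4 tables also carry the name of the other treatment. Groups keep their labels here, the libraries labelled HMGB2 siRNA are called HMGB2-high and those labelled Scramble HMGB2-low, and every fold change is HMGB2-high over HMGB2-low. The epithelial keratin KRT8, called higher, had 2720 and 2770 CPM (reads scaled to a common library total) in the HMGB2-high libraries and 2540 and 1960 CPM in the HMGB2-low libraries. CDH1 (E-cadherin) was 2.31-fold, KRT7 1.67-fold and KRT19 1.61-fold higher, and SOX9, a ductal transcription factor, was 1.19-fold lower, while EPCAM, KRT18, MUC1 and VIM did not pass. The 9 markers listed for this line, not all of them epithelial, include VIM, with 2480 and 2350 against 2230 and 2160 CPM. These 9 summed to 7080 to 7160 CPM in the HMGB2-high libraries and 5590 to 6570 CPM in the HMGB2-low libraries. Their part in the RAB results was not tested. Leukocyte CD3E, fibroblast DCN and the pancreatic secretory genes PRSS1, INS, GCG and SST had 0 counts in all 4 libraries. Summed over 4 endothelial markers, the level was 0.0487 to 0.254 CPM in the HMGB2-high libraries and 0.096 to 0.227 CPM in the HMGB2-low libraries. The leukocyte and fibroblast lists were carried by CD68, a lysosomal membrane protein, with 104 and 109 against 121 and 98.7 CPM, and by the collagen gene COL1A1, with 60.4 and 60.5 against 76.7 and 55.2 CPM, and neither was called. At much lower levels, COL3A1, with 2.77 and 2.34 against 1.14 and 1.2 CPM, and PDGFRB, with 0.827 and 1.07 against 0.318 and 0.192 CPM, were called higher (adjusted p = 0.00292 and 0.00625), and their part in the RAB results was not tested.

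A RAB protein is a membrane switch. Guanine nucleotide exchange factors (GEFs) load it with GTP on a given membrane, effectors such as tethers and motors bind the GTP form, and GTPase-activating proteins (GAPs) return it to the GDP form. Newly made RABs are handed by an escort protein to a transferase that attaches geranylgeranyl lipids to cysteines at the C terminus, and GDP dissociation inhibitors (GDIs) carry the lipid-bearing GDP form through the cytosol. Different members mark the endoplasmic reticulum and Golgi, early, recycling and late endosomes, lysosomes, and secretory granules.

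The RAB family moved in both directions and about as often as other genes. In the HMGB2-high libraries 8 of 53 tested members were higher, or 15.1%, beside 16.7% of all 15161 tested genes, and 11 were lower, or 20.8%, beside 14.1% of all tested genes. In all 35.8% of the tested members passed, beside 30.8% of all tested genes. The other 34 members did not pass at an adjusted p of 0.05 (quasi-likelihood test of edgeR, adjusted over all tested genes by Benjamini-Hochberg). Tested members had a median log2 fold change of -0.02, beside -0.01 for all tested genes. The RAB genes called higher were RAB12, RAB33B, RAB26, RAB3D, RAB34, RAB31, RAB8B and RAB1B, and those called lower were RAB3B, RAB36, RAB42, RAB27B, RAB43, RAB5B, RAB29, RAB1A, RAB6B, RAB7A and RAB5A. RAB3B, at 2-fold lower, had the largest change among the members called. Both libraries of a group lay above both of the other for 36 tested members, or 67.9%, beside 63.7% of all tested genes, and this held for all 19 members called. The split between directions depended on the scaling, for the RAB genes as for all tested genes. Upper-quartile factors gave 6 members higher and 14 lower. Of all 15161 tested genes these factors gave 2035 higher and 2809 lower, against 2536 and 2135 in the main fit. Leaving out HMGB2 siRNA replicate 1 or replicate 2 left fewer calls in each direction, among the members and among all tested genes. All RAB genes together took 0.352 and 0.343% of counts in the HMGB2-high libraries and 0.362 and 0.371% in the HMGB2-low libraries.

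**Figure D1:**
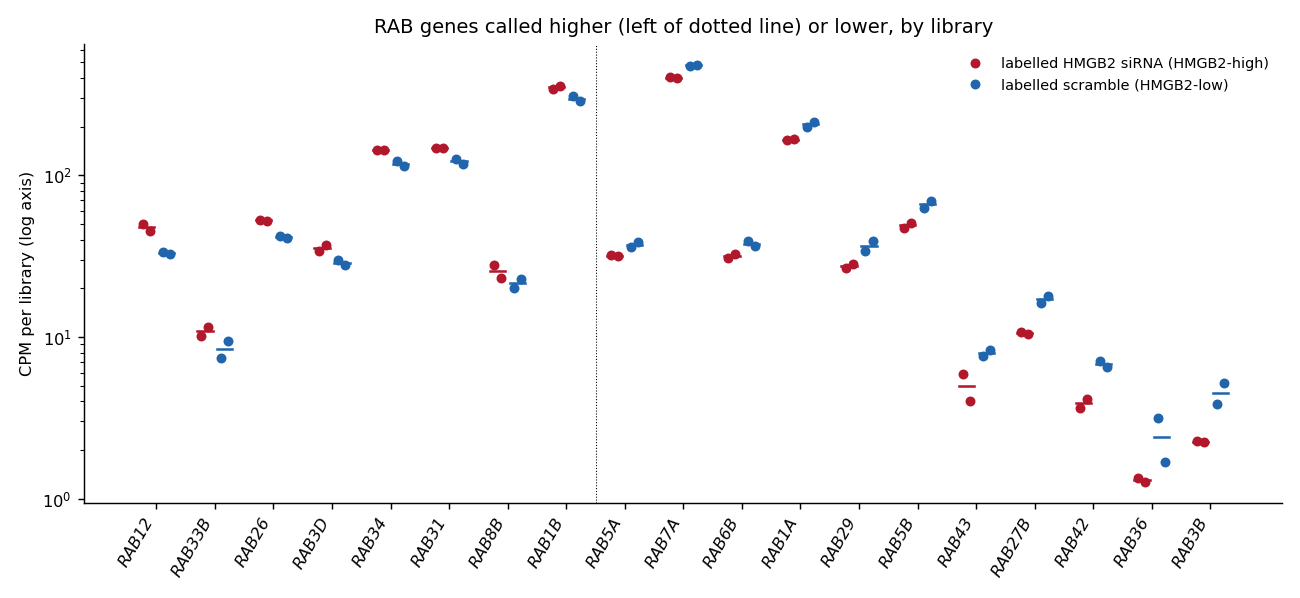
The 19 RAB genes that passed the edgeR test, with the CPM of each library on a log axis (points) and the group mean (bars), HMGB2-high libraries in red and HMGB2-low libraries in blue, ordered from the most positive to the most negative fold change. For all 19 genes both points of a group lie above both of the other; the RAB36 and RAB43 points lie far apart within 1 group.

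Exons shared with other genes left 1 member unreadable and reduced what could be counted for several others. Of 912 genes whose every exonic base also lies in an exon of another gene on the same strand, 894 had 0 counts in all libraries and the rest had fewer than 50. All 311 genes covered in the same way only by genes on the opposite strand had 0 counts, while 50.4% of 39383 genes with no shared exonic base were at 0. RAB4B, a regulator of recycling from early endosomes (chromosome 19, 40778247 to 40796942), belongs to the first kind. Each of its 1159 exonic bases is shared with the readthrough genes MIA-RAB4B or RAB4B-EGLN2, and all 3 genes were listed at 0 in all 4 libraries, so these tables give no level for RAB4B. RAB43 shares 84.6% of its exonic bases with ISY1-RAB43, and RAB5B shares 73.5% with SUOX, both on the same strand. RAB23 shares 57.1% with BAG2, RAB6B 55.6% with SRPRB and RAB11A 46.4% with MEGF11, all on the opposite strand. Levels of different members are therefore compared below as CPM per kb of unshared exonic sequence, a scale that still depends on which isoforms are made.

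By that scale the most abundant members, as means over the 4 libraries, were RAB7A with 202 CPM per unshared kb, RAB1B with 168, RAB10 with 114 and RAB1A with 80.3. RAB7A acts at late endosomes and lysosomes, RAB1A and RAB1B between the endoplasmic reticulum and the Golgi, and RAB10 in exocytic and recycling traffic. RAB32 with 73.4 and RAB5C with 71.7 followed. Several members were near the floor. RAB3C and RAB19 each had 1 count in all 4 libraries, RAB40A and RAB44 had 1 and 0 counts in the HMGB2-high libraries and 0 and 2 in the HMGB2-low libraries, and RAB38 had 2 and 1 against 1 and 0. The epithelial RAB25 had 7 and 0 counts against 2 and 0, and the synaptic vesicle member RAB3A 6 and 6 against 5 and 14. A library without a read could still hold 3 counts, or 0.0942 to 0.1475 CPM, a limit that covers counting error only. RAB1C, a pseudogene by RefSeq, had 8 and 4 against 6 and 5 counts. RAB6C had 4 and 5 against 0 and 3, and RAB6D 2 and 7 against 4 and 6. Coding sequences of RAB6C and RAB6D are 99.5% identical to each other and 96.3% and 96.5% identical to that of RAB6A, so reads may be split or lost between these 3 genes.

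Among the members of the endoplasmic reticulum and Golgi, 2 of 12 tested genes rose in the HMGB2-high libraries and 3 fell. These are 16.7% and 25%, beside 16.7% and 14.1% of all tested genes. RAB1A (chromosome 2, 65086854 to 65130132) and RAB1B (chromosome 11, 66268526 to 66277492), which both act in transport from the endoplasmic reticulum to the Golgi, went opposite ways. RAB1A had 166 and 167 CPM in the HMGB2-high libraries and 200 and 214 CPM in the HMGB2-low libraries, a log2 fold change of -0.32 ± 0.06 (SE, adjusted p = 0.000131). RAB1B had 344 and 356 CPM in the HMGB2-high libraries and 308 and 288 CPM in the HMGB2-low libraries, a log2 fold change of 0.23 ± 0.06 (SE, adjusted p = 0.00393). Neither pair of groups overlapped. The RAB1B call ended without replicate 1 labelled HMGB2 siRNA (0.26, adjusted p = 0.0639) and without replicate 2 of that label (0.21, adjusted p = 0.141), while the RAB1A call held without each library in turn.

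RAB43, a Golgi member (chromosome 3, 129087569 to 129122150), had 5.92 and 4.04 CPM in the HMGB2-high libraries and 7.63 and 8.30 CPM in the HMGB2-low libraries. It was 1.56-fold lower (log2 fold change -0.65 ± 0.17 SE, adjusted p = 0.00277), on counts that come from 720 unshared bases, and without replicate 2 labelled HMGB2 siRNA the value was -0.42 (adjusted p = 0.159). RAB33B, a Golgi member that also binds the autophagy protein ATG16L1 (chromosome 4, 139453232 to 139476609), had 10.2 and 11.5 CPM in the HMGB2-high libraries and 7.4 and 9.41 CPM in the HMGB2-low libraries. Its log2 fold change of 0.36 ± 0.14 (SE, adjusted p = 0.0473) lay just inside the threshold. RAB33B was not called with upper-quartile or total-count scaling, DESeq2 or limma-voom. Leaving out a library also ended the call, except for Scramble replicate 2, with values of 0.46 and 0.28 without replicates 1 and 2 labelled HMGB2 siRNA and 0.20 without Scramble replicate 1. Its relative RAB33A had 0.795 and 0.633 CPM in the HMGB2-high libraries and 0.908 and 1.54 CPM in the HMGB2-low libraries and did not pass (adjusted p = 0.176).

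RAB6B, the RAB6 form known from neurons, had 31.0 and 32.4 CPM in the HMGB2-high libraries and 39.0 and 36.5 CPM in the HMGB2-low libraries, at a log2 fold change of -0.26 ± 0.09 (SE, adjusted p = 0.0185). This call ended with DESeq2 (adjusted p = 0.0728), with no low-count filter (0.0609), and without each library but Scramble replicate 2, at values from -0.28 to -0.20. The widely expressed RAB6A, which returns vesicles from endosomes and Golgi, had 206 and 195 CPM against 194 and 207 CPM, with groups that overlapped and a log2 fold change of 0.00 ± 0.07 (SE). RAB2A and RAB2B, of the early secretory pathway, had log2 fold changes of -0.01 ± 0.07 and -0.00 ± 0.10 (SE). RAB18, a lipid droplet and endoplasmic reticulum member, had 62.8 and 58.7 CPM against 67.9 and 70.2 CPM and just missed the threshold (adjusted p = 0.052). RAB30 at -0.18 and RAB41 at 0.24 were not called.

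**Figure D2:**
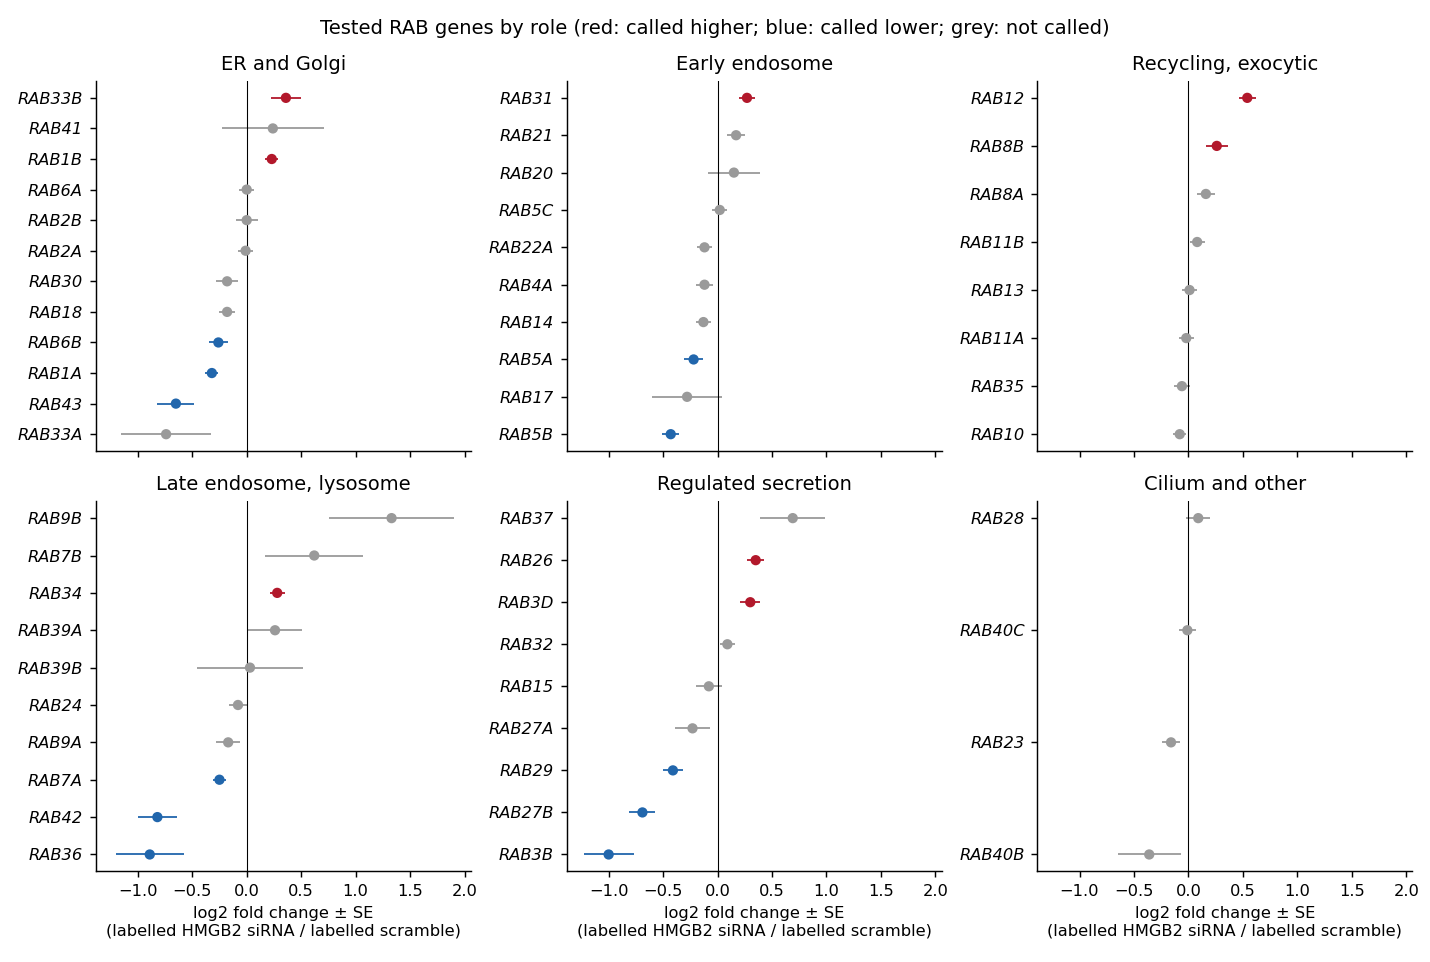
Log2 fold change, HMGB2-high over HMGB2-low libraries, with its standard error for the 53 tested RAB genes in 6 panels by role, red for genes called higher, blue for genes called lower and grey for genes not called. Called genes of both directions stand in 4 of the panels. The recycling panel has 2 called genes of 8, both higher, and the cilium panel has 0 of 4. Of all tested genes 16.7% were called higher and 14.1% lower.

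At early endosomes 1 of 10 tested members rose and 2 fell, or 10% and 20%, beside 16.7% and 14.1% of all tested genes. The RAB5 proteins control fusion of incoming vesicles with early endosomes and of these endosomes with each other. RAB5B (chromosome 12, 55973949 to 55996683) had 47.3 and 50.9 CPM in the HMGB2-high libraries and 63.0 and 69.4 CPM in the HMGB2-low libraries. The groups were apart, the log2 fold change was -0.43 ± 0.08 (SE, adjusted p = 1.09e-05), and the call held without each library in turn. Its exon-sharing neighbour SUOX had 27.0 and 27.4 CPM against 27.1 and 27.5 CPM and was not called (log2 fold change -0.01 ± 0.09 SE). RAB5A (chromosome 3, 19947097 to 19985175) had 32.2 and 31.6 CPM in the HMGB2-high libraries and 35.8 and 38.6 CPM in the HMGB2-low libraries, close to the threshold at -0.22 ± 0.09 (SE, adjusted p = 0.0451). That call ended with DESeq2 (adjusted p = 0.133), with no low-count filter (0.144) and without each library but Scramble replicate 1, at values from -0.23 to -0.16. RAB5C, the most abundant of the set per unshared kb, had 147 and 138 CPM against 147 and 134 CPM and did not pass (log2 fold change 0.02 ± 0.07 SE).

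RAB31, which works between the trans-Golgi network and endosomes (chromosome 18, 9708187 to 9862551), had 148 and 147 CPM in the HMGB2-high libraries and 127 and 117 CPM in the HMGB2-low libraries. RAB31 was 1.21-fold higher (log2 fold change 0.27 ± 0.07 SE, adjusted p = 0.0012), and without replicate 1 labelled HMGB2 siRNA the value was 0.27 with an adjusted p of 0.0605. RAB22A, its closest relative, had 73.2 and 69.0 CPM against 77.2 and 77.7 CPM, with an adjusted p of 0.201. The early endosome and recycling members RAB4A, RAB14, RAB17, RAB20 and RAB21 had log2 fold changes from -0.28 for RAB17 to 0.17 for RAB21 and were not called.

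In the recycling and exocytic group 2 of 8 tested members rose and 0 fell, or 25% and 0%, beside 16.7% and 14.1% of all tested genes. RAB12 was the clearest change in this group. RAB12 (chromosome 18, 8609428 to 8639383) directs transferrin receptor to lysosomes and had 50.2 and 45.5 CPM in the HMGB2-high libraries and 33.7 and 32.4 CPM in the HMGB2-low libraries. It was 1.45-fold higher, a log2 fold change of 0.54 ± 0.08 (SE, adjusted p = 9.37e-07), the smallest p among the RAB genes, and the value stayed between 0.46 and 0.61 under every alternative. RAB8B had 27.8 and 23.3 CPM in the HMGB2-high libraries and 20 and 22.9 CPM in the HMGB2-low libraries, a narrow gap at 0.26 ± 0.10 (SE, adjusted p = 0.0452). RAB8B lost the call with upper-quartile or total-count scaling and DESeq2. Without replicate 1 labelled HMGB2 siRNA its value was 0.12 (adjusted p = 0.668) and without Scramble replicate 1 it was 0.18 (adjusted p = 0.178). RAB8A, which carries vesicles to the plasma membrane and the cilium, had 64.9 and 68.2 CPM against 63.3 and 55.4 CPM and did not pass (adjusted p = 0.0974), but leaving out Scramble replicate 1 gave a call at 0.27 (adjusted p = 0.00203). The abundant RAB10, RAB11A, RAB11B, RAB13 and RAB35 had log2 fold changes from -0.08 for RAB10 to 0.08 for RAB11B, none of them called.

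At late endosomes and lysosomes 1 of 10 tested members rose and 3 fell, or 10% and 30%, beside 16.7% and 14.1% of all tested genes. RAB7A (chromosome 3, 128726183 to 128814798), the member that drives fusion with lysosomes, had 405 and 399 CPM in the HMGB2-high libraries and 475 and 483 CPM in the HMGB2-low libraries. The log2 fold change was -0.25 ± 0.06 (SE, adjusted p = 0.00156), and the adjusted p was 0.07 and 0.102 without replicates 1 and 2 labelled HMGB2 siRNA, at -0.26 and -0.24. RAB34 (chromosome 17, 28714281 to 28718440), which positions lysosomes and takes part in cilium formation, had 144 and 144 CPM in the HMGB2-high libraries and 122 and 114 CPM in the HMGB2-low libraries. The difference was 0.28 ± 0.07 on the log2 scale (SE, adjusted p = 0.000673), and held without each library in turn.

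RAB36, the relative of RAB34 (chromosome 22, 23145298 to 23169285), was scarce, with 1.34 and 1.27 CPM in the HMGB2-high libraries and 3.13 and 1.68 CPM in the HMGB2-low libraries. Its log2 fold change of -0.89 ± 0.31 (SE, adjusted p = 0.0263) rested on Scramble replicate 1, since without that library it was -0.35 (adjusted p = 0.548). DESeq2 did not call RAB36 (adjusted p = 0.137), nor did the fits without replicate 1 (-0.93) or 2 (-0.85) labelled HMGB2 siRNA. RAB42 (chromosome 1, 28592265 to 28596666) had 3.66 and 4.14 CPM in the HMGB2-high libraries and 7.13 and 6.53 CPM in the HMGB2-low libraries, which did not overlap. RAB42 was 1.76-fold lower (log2 fold change -0.82 ± 0.18 SE, adjusted p = 0.000396) and was called under every alternative. Its relatives RAB39A, with 2.93 and 3.56 against 1.91 and 3.46 CPM, and RAB39B, with 0.604 and 0.585 against 0.591 and 0.576 CPM, were not called. RAB9B had the most positive value of the family at 1.33 ± 0.57 (log2 fold change ± SE) on 15 and 21 counts against 6 and 6, and did not pass (adjusted p = 0.0691). RAB7B, RAB9A and RAB24 did not pass either.

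Among the members of regulated secretion and lysosome-related organelles, 2 of 9 tested genes rose in the HMGB2-high libraries and 3 fell. These are 22.2% and 33.3%, beside 16.7% and 14.1% of all tested genes. RAB3B (chromosome 1, 51907956 to 51990700) and RAB3D (chromosome 19, 11322068 to 11339657) act in the release of secretory granules. RAB3B had 2.26 and 2.24 CPM in the HMGB2-high libraries and 3.86 and 5.18 CPM in the HMGB2-low libraries, at -1.0 ± 0.23 (log2 fold change ± SE, adjusted p = 0.000591). RAB3D, much more abundant per unshared kb, had 34.2 and 37.1 CPM in the HMGB2-high libraries and 29.8 and 27.9 CPM in the HMGB2-low libraries, at 0.30 ± 0.09 (log2 fold change ± SE, adjusted p = 0.00717). The groups were apart for both genes, and RAB3D lost its call without replicate 2 labelled HMGB2 siRNA (0.25, adjusted p = 0.19).

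RAB27A and RAB27B dock secretory granules and exosome-bearing endosomes at the plasma membrane. RAB27B (chromosome 18, 54717842 to 54895516) had 10.8 and 10.4 CPM in the HMGB2-high libraries and 16.3 and 18 CPM in the HMGB2-low libraries. It was 1.62-fold lower (log2 fold change -0.69 ± 0.12 SE, adjusted p = 6.35e-06) and was called under every alternative. RAB27A (chromosome 15, 55202966 to 55291338) had 6.39 and 5.65 CPM in the HMGB2-high libraries and 6.81 and 7.44 CPM in the HMGB2-low libraries, without overlap but short of the threshold (log2 fold change -0.23 ± 0.16 SE, adjusted p = 0.301).

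RAB29, which recruits the kinase LRRK2 to Golgi and lysosomes (chromosome 1, 205767986 to 205775487), had 26.9 and 28.1 CPM in the HMGB2-high libraries and 34.0 and 39.1 CPM in the HMGB2-low libraries. RAB29 was 1.33-fold lower (log2 fold change -0.41 ± 0.09 SE, adjusted p = 0.000304) and was called under every alternative, while LRRK2 itself had 0 counts in all 4 libraries. RAB32, a relative known from melanosomes, had 82.5 and 78.6 CPM against 75.9 and 75.7 CPM and did not pass (adjusted p = 0.364). RAB26, a secretory granule member linked to autophagy of synaptic vesicles (chromosome 16, 2148144 to 2154165), had 53.1 and 52.2 CPM in the HMGB2-high libraries and 41.9 and 40.7 CPM in the HMGB2-low libraries. The log2 fold change of RAB26 was 0.35 ± 0.08 (SE, adjusted p = 0.000379), with a call under every alternative, and its relative RAB37 had 2.19 and 2.78 against 1.73 and 1.3 CPM (adjusted p = 0.0679). RAB15 was not called. Of the remaining members, RAB23 and RAB28, linked to cilia, and RAB40B and RAB40C, which form ubiquitin ligase complexes, had log2 fold changes from -0.36 to 0.09. Of these 4 genes 0 were called, beside 30.8% of all tested genes.

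Near paralogs were set side by side in 19 sets, 17 of which had at least 2 tested members, giving 23 pairs. In 3 pairs 1 gene was called higher and the other lower (RAB1B and RAB1A, RAB3D and RAB3B, RAB34 and RAB36), and in 1 pair both were called lower (RAB5A and RAB5B). Without HMGB2 siRNA replicate 1, RAB3D and RAB3B remained as the 1 opposite pair, and without HMGB2 siRNA replicate 2 there were 0. DESeq2 called 2 opposite pairs, without RAB34 and RAB36. The pair called lower was lost in each of these 3 fits, as the RAB5A call was. To show how close such genes are, the last 30 coding bases before the stop codon are given 5′ to 3′ with cysteine codons in capitals, read from GENCODE release 29 transcripts on GRCh38. Codons for the cysteines that receive the lipid close the coding sequence as a pair in RAB1A, RAB1B and RAB36, as a pair around 1 other codon in RAB3B and RAB3D, and 1 codon before the end in RAB34.
RAB1A, chr2:65088496-65088525, minus strand: ccagtcaagcagtcaggtggaggtTGCTGC
RAB1B, chr11:66276206-66276235, plus strand: cctgtaaagccggctggcggtggcTGTTGC
RAB3B, chr1:51919930-51919959, minus strand: ccaccgctgctgcagcagaacTGCtcaTGC
RAB3D, chr19:11325401-11325430, minus strand: ccagccccccagcccagcagcTGCagcTGC
RAB34, chr17:28714646-28714675, minus strand: gccagcaagaagaagcccacaTGTTGCcca
RAB36, chr22:23161532-23161561, plus strand: agcaagaggccctccagcctgggcTGCTGC
RAB6A, chr11:73677901-73677930, minus strand: caaccagtcagtgaaggaggcTGTtccTGC
RAB6C, chr2:129980848-129980877, plus strand: aattcatcattgctgcctgtctcgtggagg

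The RAB6 lines are shown because RAB6C, unlike RAB6A, ends without a cysteine codon in its last 10 codons. Of the 53 tested members 15 end with the codon pair CC and 16 with CxC, where C is a cysteine codon and x any other. Coding identity, over aligned bases, was 76.4% between RAB1A and RAB1B, 77.9% between RAB3B and RAB3D, 69.2% between RAB27A and RAB27B and 72.4% between RAB34 and RAB36. The longest run shared by the transcripts of these pairs was 16, 23, 17 and 17 bases. RAB6A and RAB6C differed from this, with 96.3% identity and a shared run of 164 bases. Reads lying wholly inside such a run match both genes of the pair, and how the authors treated such reads was not given in the sources used here.

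Within the RAB1 set the balance of the 2 genes differed between groups by more than the spread between libraries. This was common, as log2 ratios did not overlap between groups in 17 of 23 paralog pairs. No such share was computed for pairs of other genes. RAB1A made up 28.6 and 28.0% of the summed level per unshared kb in the HMGB2-high libraries and 35.0 and 38.2% in the HMGB2-low libraries. The log2 fold change of RAB1A minus that of RAB1B was -0.55 ± 0.09 (SE, the root of the summed squares of both errors). With 2 libraries a group the smallest exact permutation p, two-sided, is 0.33, so these differences between paralogs are given with their errors and no p. RAB3B minus RAB3D was -1.3 ± 0.25 and RAB34 minus RAB36 was 1.17 ± 0.32 (SE), which became 0.7 ± 0.42 without Scramble replicate 1. RAB3B remained a minor member of its set, at 2.05 and 1.86% in the HMGB2-high libraries and 3.92 and 5.28% in the HMGB2-low libraries, as did RAB36 at 0.348 and 0.33% against 0.956 and 0.55%.

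RAB27B held 48.0 and 50.3% of the RAB27 level in the HMGB2-high libraries and 56.8 and 57.1% in the HMGB2-low libraries, so the order of RAB27A and RAB27B depended on the library. The difference of RAB27A minus RAB27B was 0.46 ± 0.20 (log2 fold change, SE). In the RAB5 set RAB5B held 27.3 and 30% against 33 and 36.7%, RAB5C held 64.0 and 61.3% against 58.2 and 53.7%, and RAB5B minus RAB5C was -0.45 ± 0.10 (SE). RAB31 held 80.8 and 81.6% of its set with RAB22A in the HMGB2-high libraries and 77.4 and 75.8% in the HMGB2-low libraries, with RAB22A minus RAB31 at -0.39 ± 0.10 (SE). RAB29 minus RAB32 was -0.50 ± 0.11 (SE). RAB42 held 45.5 and 44.3% of the set with RAB39A and RAB39B against 70.4 and 56.3%. Smaller differences were seen for RAB2A minus RAB2B at -0.01 ± 0.12, RAB8A minus RAB8B at -0.10 ± 0.13 and RAB11A minus RAB11B at -0.10 ± 0.10 (SE). None of these 3 was clearly larger than its error. Even so, the log2 ratios of RAB11A to RAB11B did not overlap, at 0.54 and 0.47 in the HMGB2-high libraries against 0.57 and 0.65. Leaving out each library in turn moved RAB8A minus RAB8B between -0.3 and 0.09.

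**Figure D3:**
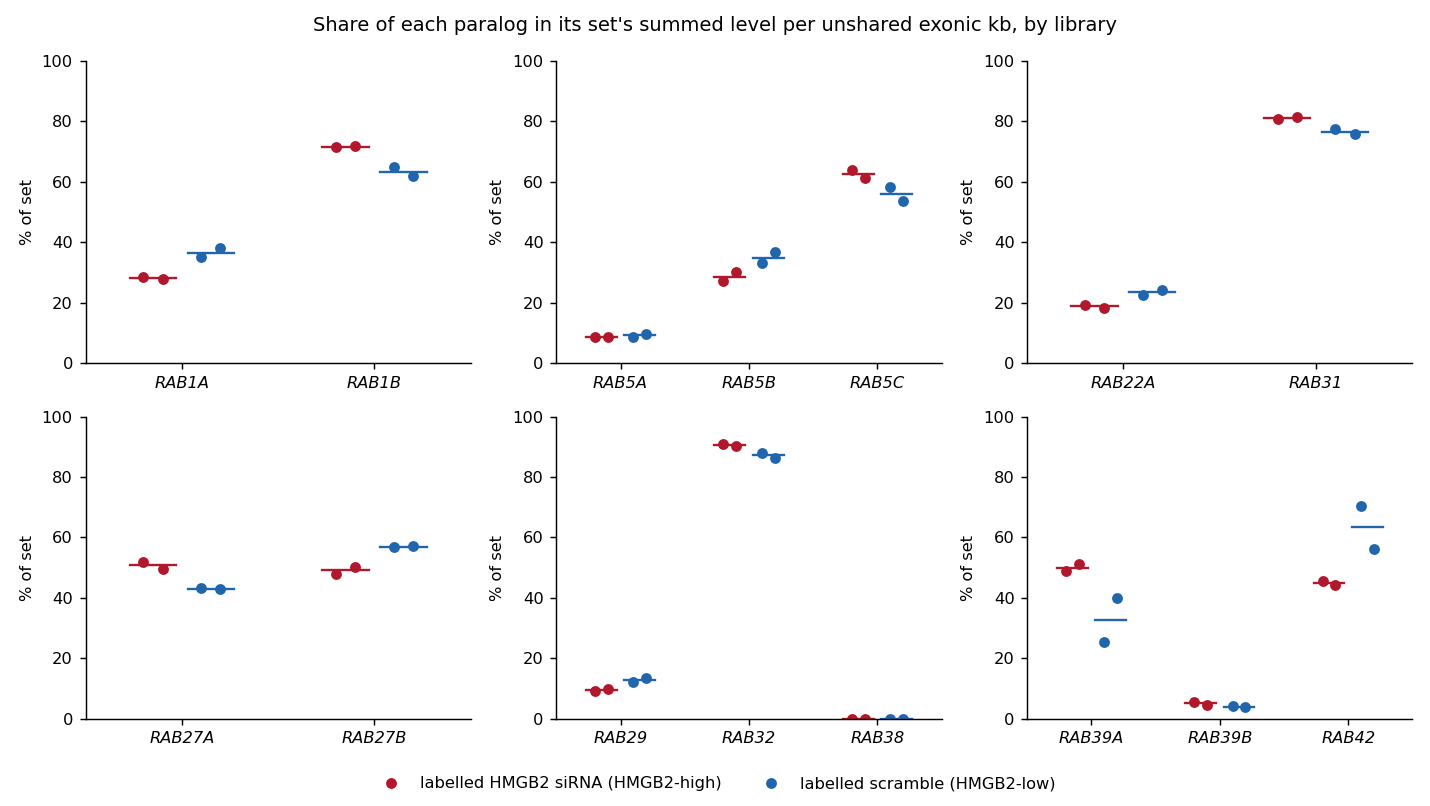
Share of each gene in the summed level per unshared exonic kb of its paralog set, in percent, for each library (points) with group means (bars), HMGB2-high libraries in red left of HMGB2-low libraries in blue. RAB1A is at 28.6 and 28.0% against 35.0 and 38.2%, and RAB42 at 45.5 and 44.3% against 70.4 and 56.3%.

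Sequence words in 3′ untranslated regions were examined as a feature the choice of members did not use. All heptamers, read on the transcript strand only, were ranked by their association with higher values in the HMGB2-high libraries over 11866 tested genes other than RAB genes and HMGB2. The word ranked first was GACAAAG, present in 10.7% of those genes. Next came ATAGTAA, present in 10.8%. AATAGTA followed, present in 11%, and it overlaps the word before it in 6 bases. Since the words were picked for higher values in those genes, the fold changes of those genes are no test of them. Among the RAB genes the 3 words were present in 19 of 53, of which 2 were higher and 2 lower, or 10.5% each way. They were absent from 34, of which 6 were higher and 9 lower, or 17.6% and 26.5%. Of the other genes, from which the words were picked, 32.3% of those with a word were higher and 10.6% lower. Without a word 16.1% of the other genes were called each way. GACAAAG was present in 8 RAB genes, and RAB12 and RAB33B were the 2 called, both higher. These 2 are 25% of the 8, beside 34.6% higher and 10.3% lower of the other genes with GACAAAG. RAB3B and RAB27B, both lower, carried each of the overlapping words, and so did RAB21, RAB30 and RAB39B, which were not called. In RAB27B and RAB39B both words come from 1 stretch of bases, and in RAB3B the AATAGTA overlaps the ATAGTAA printed below. The RAB genes and the other genes were measured in the same libraries, so the ranking is not independent of these values, and a match says only that the letters are there. The sites of the 4 called genes are given 5′ to 3′ with the heptamer in capitals.
RAB12, chr18:8638269-8638291, plus strand: actttggaGACAAAGtggaaatg
RAB33B, chr4:139474987-139475009, plus strand: actataaaGACAAAGtaattcta
RAB3B, chr1:51911917-51911939, minus strand: ttccagaaATAGTAAtctcttct
RAB27B, chr18:54890820-54890842, plus strand: tctaaaaaATAGTAAcaaaatta

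The site in RAB12 starts 15 bases after the stop codon, and those in RAB33B, RAB27B and RAB3B start 1869, 1415 and 7996 bases after it. RAB3B carries a second ATAGTAA, and RAB33B a pair of AATAGTA words, not printed here.

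Genes that act on RAB proteins were also called in both directions. Of 139 listed genes 131 were tested, and 26 were higher and 26 lower in the HMGB2-high libraries, or 19.8% each way, beside 16.7% higher and 14.1% lower of all tested genes. Upper-quartile scaling gave 21 higher and 32 lower, beside 2035 higher and 2809 lower of all 15161 tested genes. Without HMGB2 siRNA replicate 1 or replicate 2 fewer machinery genes were called in each direction, as were fewer of all tested genes. The machinery genes had a median log2 fold change of -0.04, from -0.89 to 1.48.

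Of 7 tested genes for lipid attachment and extraction from membranes, 2 rose and 2 fell. That is 28.6% each way, beside 16.7% and 14.1% of all tested genes. CHM, the escort protein REP1 that presents new RABs for lipid attachment, had 61.9 and 57.1 CPM in the HMGB2-high libraries and 35.1 and 45.3 CPM in the HMGB2-low libraries. CHM was 1.49-fold higher (log2 fold change 0.57 ± 0.09 SE, adjusted p = 5.52e-07). Its relative CHML shares 98.5% of its exonic bases with OPN3 on the same strand, which leaves 121 unshared bases. CHML had 3 and 2 counts against 2 and 4, and its level cannot be read from these. The transferase subunits RABGGTA and RABGGTB did not pass, at -0.09 and 0.17. RABAC1, a membrane protein that binds prenylated RABs, was 1.22-fold higher, and RABIF, which stabilises nucleotide-free RABs, and the inhibitor GDI2 had log2 fold changes of -0.34 ± 0.08 and -0.21 ± 0.07 (SE). Without replicate 1 labelled HMGB2 siRNA the adjusted p was 0.112 for RABAC1, 0.0762 for RABIF and 0.123 for GDI2. RABAC1 (0.108) and GDI2 (0.252) were not called without replicate 2 of that label, nor GDI2 without Scramble replicate 1 (0.0531).

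Among GEFs 7 of 36 tested genes rose and 8 fell, or 19.4% and 22.2%, beside 16.7% and 14.1% of all tested genes. DENND5B, a DENN domain protein, had 91.9 and 90.2 CPM in the HMGB2-high libraries and 52.2 and 60.5 CPM in the HMGB2-low libraries and was 1.62-fold higher (adjusted p = 1.1e-10). DENND6A, an exchange factor for RAB14, was 1.5-fold higher and TRAPPC10, a subunit of the TRAPPII complex, 1.37-fold higher. SBF1, a DENN domain protein with an inactive phosphatase domain, was 1.31-fold lower, and RAB3IL1, an exchange factor for RAB8 and RAB3A, 1.42-fold lower. Of 38 GAPs with a TBC domain 8 rose and 5 fell, or 21.1% and 13.2%. TBC1D9 had 44.4 and 42.6 CPM in the HMGB2-high libraries and 14.3 and 17 CPM in the HMGB2-low libraries, and its 2.78-fold difference was the largest of the machinery genes called (adjusted p = 9.21e-18). USP6NL, which acts on RAB5, was 1.59-fold, TBC1D22A 1.4-fold and TBC1D2B 1.24-fold higher, and TBC1D8 was 1.28-fold lower.

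Effectors and other binding partners had 9 higher and 11 lower genes of 50 tested, or 18% and 22%, beside 16.7% and 14.1% of all tested genes. MICAL1, an actin-oxidising enzyme that RABs activate, had 51.9 and 54.7 CPM in the HMGB2-high libraries and 92.9 and 105 CPM in the HMGB2-low libraries, and was 1.86-fold lower (adjusted p = 2.92e-14). SYTL2, a RAB27 effector that tethers granules at the plasma membrane, had 94.1 and 92.7 CPM against 163 and 146 CPM, and was 1.65-fold lower (adjusted p = 2.52e-12). RAB27B was also lower in these libraries, as described above. However, UNC13D, another RAB27 effector, named after its values were seen, was 1.9-fold higher (adjusted p = 0.00272). It had 3.79 and 3.65 CPM in the HMGB2-high libraries and 2 and 1.92 CPM in the HMGB2-low libraries. SYTL1, SYTL3, MLPH and MYRIP, of the same list, were not called. The motor MYO5A, which RAB27A and RAB11 recruit through adaptors, was 1.31-fold higher. USO1, the RAB1 tether p115, was 1.32-fold lower. ANKFY1 and EEA1 are both RAB5 effectors, and EEA1 is named after its values were seen. Among other RAB5 effectors of the same list, APPL1 was called lower, at -0.28 ± 0.08 (log2 fold change, SE). RABEP1, RABEP2, RBSN and APPL2 were not called. ANKFY1 had 81.2 and 86.4 CPM in the HMGB2-high libraries and 109 and 111 CPM in the HMGB2-low libraries, and EEA1 had 25.8 and 26.5 CPM in the HMGB2-high libraries and 16.0 and 18.9 CPM in the HMGB2-low libraries. ANKFY1 was 1.31-fold lower and EEA1 1.5-fold higher, with adjusted p of 8.58e-06 and 1.08e-05 (edgeR quasi-likelihood test for all adjusted p above).

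**Figure D4:**
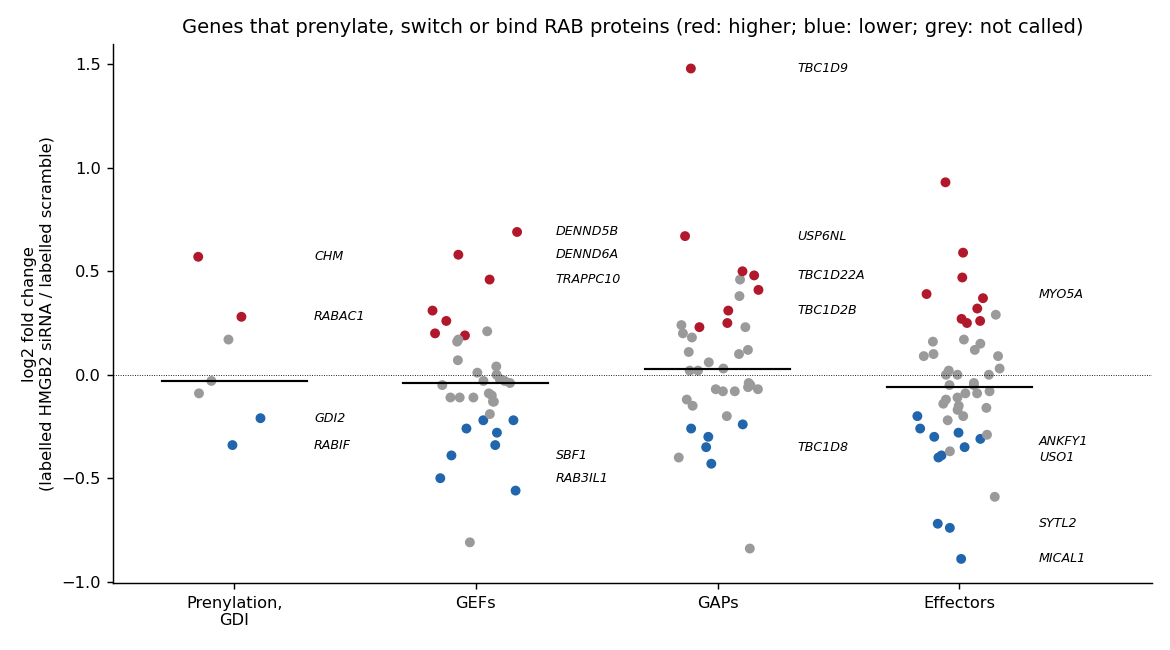
Log2 fold change, HMGB2-high over HMGB2-low libraries, of the 131 tested genes that attach lipids to, switch or bind RAB proteins, by list, red for called higher, blue for called lower and grey for not called, with the list median as a bar and horizontal jitter for legibility. Names stand near the heights of up to 5 called genes with the smallest p in each list; TBC1D9 lies highest and MICAL1 lowest.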

How the data were processed

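Unnormalized whole-number read counts per gene, 1 table per library, were deposited, per the file headers. STAR, SAMtools 1.9, featureCounts of Subread 1.6.3, DESeq2 and hg38 (GRCh38) are named in the submitters' processing notes. The sources used here do not give the strand setting or the handling of multimapping reads. Samples were grouped by their treatment label, and nothing was regrouped.

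Counts were tested with edgeR 4.0.16 (glmQLFit, glmQLFTest) in R 4.3.3 with the label group as sole term, TMM factors and filterByExpr (smallest count 10, smallest total 15), on all genes, with Benjamini-Hochberg adjustment and a threshold of 0.05. SE is the fitted log2 coefficient divided by the root of F. CPM uses TMM-scaled totals. The common biological coefficient of variation was 0.0507, and libraries of a group differed by more than sampling noise (chi-square per degree of freedom 3.1 and 5.68). Shared exonic bases were computed from the exon coordinates in the tables on the main chromosomes. Transcript ends, untranslated regions and coding identity came from GENCODE release 29 (GRCh38), matched by symbol for 53 of 53 tested RAB genes, with the principal, then longest, coding transcript. Heptamer presence was regressed with region length and GC content as covariates. RefSeq gave the gene type.

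The members, gene lists and paralog sets were chosen with earlier results of these data known. Full values were to be given for RAB genes called at a change of at least 1.25-fold, for their paralogs and for up to 5 genes with the smallest p per machinery list; other called RAB genes were added after their values were seen. Python 3.11.15, NumPy 2.4.6, Biopython 1.88 and matplotlib 3.10.9 were used. Settings varied were the scaling (RLE, upper quartile, or total counts), the filter (none, or a mean of at least 1 CPM), the tool (DESeq2 1.42.0, or voom of limma 3.58.1), a replicate block, an adjusted p of 0.01 and leaving out each library.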

Additional observations from a re-analysis of the deposited data

How the results depend on the processing

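All 19 RAB calls kept their direction under the 13 alternatives, though an adjusted p of 0.01 reuses the main fit and cannot change a direction. Under all 13, 9 genes kept the call (RAB1A, RAB3B, RAB5B, RAB12, RAB26, RAB27B, RAB29, RAB34 and RAB42). Of 34 RAB genes not called, 8 were called under some alternative and 13 changed sign under some. HMGB2 stayed between 3.02 and 3.11 on the log2 scale. Leaving out each library in turn gave 4 to 10 RAB genes higher and 6 to 11 lower, 15 to 30 machinery genes higher and 12 to 28 lower, and 1481 to 2904 of all genes higher and 903 to 2291 lower. These fits have fewer samples, and the lone library of a group is assumed to vary like the other group. DESeq2 called 1286 of all genes lower and an adjusted p of 0.01 left 1316, against 2135. Upper-quartile factors gave 14 RAB genes lower and total counts 12, against 11. Of all tested genes these scalings gave 2809 and 2641 lower, against 2135.

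Replicate numbers are shared between the groups, but no label says that they pair the libraries, and same-numbered libraries did not deviate together (correlation across genes -0.0144). With the replicate block 8 RAB genes were higher and 10 lower, RAB5A alone lost its call (adjusted p = 0.0599), and 24 and 26 machinery genes and 2446 and 2011 of all genes were called higher and lower. Members with a few CPM, such as RAB36, have the widest errors among those called. No protein sequences were used here.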
